A study of Mus musculus with 2 samples.

Results

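The cells described are immature granule-gene neutrophils, 67 of the 10000 deposited cell barcodes of a mouse liver study. A barcode (the tag shared by the transcripts of 1 captured cell) was taken as such a cell if it passed 4 conditions on its unique molecular identifiers (UMIs, each standing for 1 captured transcript). It held at least 500 UMIs with at most 20% of them mitochondrial, at least 10 UMIs of Camp, Ngp and Ltf together, at least 20 UMIs of S100a8 and S100a9 together, and none of the lymphocyte genes Cd79a and Cd3e. The wild-type library held 47 of these cells and the yap1 library 20.

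Neutrophils are made in the bone marrow, where promyelocytes fill azurophil (primary) granules with elastase, proteinase 3 and myeloperoxidase. Myelocytes and metamyelocytes then load specific granules with the cathelicidin Camp, neutrophilic granule protein Ngp, lactoferrin Ltf and lipocalin Lcn2, and band cells load gelatinase granules with Mmp9. Circulating neutrophils stop transcribing most granule genes and carry the receptors Cxcr2 and Csf3r.

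Both libraries were made from liver nonparenchymal cells of C57BL/6 mice that had received carbon tetrachloride (CCl4), a hepatotoxin used to cause liver fibrosis, 4 times. The wild-type library came from 3 mice, and the yap1 library came from 3 Yap1 flox/flox mice with a Lyz2-driven Cre recombinase, which deletes floxed sequence in myeloid cells, neutrophils included. Cells of the mice in a library cannot be told apart, and the sources do not say whether the wild-type mice carried Cre or floxed alleles. Each genotype is thus 1 library, no test between genotypes is possible, and every interval below is a 95% interval that covers counting error only.

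Camp, Ngp and Ltf lie in this order on mouse chromosome 9 (build mm10, GENCODE M21), Camp at chr9:109847379-109849617 on the minus strand, Ngp at chr9:110419747-110423012 and Ltf at chr9:111019271-111042767 on the plus strand. The stretch from Camp to Ltf spans 1195 kb, with 570 kb between Camp and Ngp and 596 kb between Ngp and Ltf. The bases before these 3 genes are shown because the genes chose the cells and because Cebpe, a C/EBP-family factor of granule gene transcription, was higher in these cells than in other neutrophils. They are RefSeq upstream windows (build GRCm38.p6) cut back to end before the first annotated base of the gene, written 5′ to 3′ on the gene's strand, with any match to the C/EBP-type motif TTGCNNAA on either strand in capitals. Camp is chr9:109849618-109849706 (minus strand, 89 bases), Ngp is chr9:110419558-110419746 (plus strand, 189 bases) and Ltf is chr9:111019042-111019270 (plus strand, 229 bases).
Camp: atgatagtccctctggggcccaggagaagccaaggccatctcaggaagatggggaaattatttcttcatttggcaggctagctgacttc
Ngp: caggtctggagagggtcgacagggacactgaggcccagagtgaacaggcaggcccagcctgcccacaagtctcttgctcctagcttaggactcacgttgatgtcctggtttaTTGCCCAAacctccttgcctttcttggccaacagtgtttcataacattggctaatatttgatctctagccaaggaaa
Ltf: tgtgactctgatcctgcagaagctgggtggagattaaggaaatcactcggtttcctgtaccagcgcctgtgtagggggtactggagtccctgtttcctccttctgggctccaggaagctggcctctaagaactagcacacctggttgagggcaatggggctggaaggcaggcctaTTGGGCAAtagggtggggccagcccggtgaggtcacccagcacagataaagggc
The Ngp match began 77 bases before the gene and the Ltf match 54 bases before it. Read in the orientation of the motif, both matches have the letters TTGCCCAA. No match lay in the 89 bases shown for Camp. Among 32851 RefSeq windows cut to the same length, 7.76% held a match at the length of the Ngp window and 9.02% at that of the Ltf window. Over windows of 250 bases, 7 of the 24 specific granule genes with a window held a match (29.2%), against 3 of 24 mature neutrophil genes (12.5%) and 10.8% of all 27025 genes in the table. A match is a run of letters and is no evidence of binding.

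The 2 libraries were of similar size, with 5269 barcodes and 30386545 UMIs in the wild-type library and 4731 barcodes and 34234353 UMIs in the yap1 library, of which 4893 and 4253 barcodes passed the filters on UMIs and mitochondrial share. Both libraries shared 5 barcode sequences, and 0 of them were in immature neutrophils. Yap1 itself had 0 UMIs in the immature and in the other neutrophils of both libraries, which in the immature cells allows up to 6.13 CPM (a gene's share of the UMIs summed over a set of cells, multiplied by 1e6) in the wild-type and 11.4 CPM in the yap1 library. The deletion could therefore not be checked in these cells.

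The cells stood far from the threshold that chose them. The 3 granule genes gave between 37 and 2834 UMIs per wild-type cell (median 740) and between 44 and 2864 per yap1 cell (median 873.5), whereas the highest barcode below the cut held 9 UMIs in the wild-type and 8 in the yap1 library. A cut of 30 UMIs therefore selected the same 47 and 20 cells. Another 3 barcodes with enough granule-gene UMIs (1 wild-type and 2 yap1) were left out because they held Cd79a or Cd3e, and 1 yap1 barcode failed the filters. The plot of granule-gene against S100 UMIs shows the gap.

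**Figure D1:**
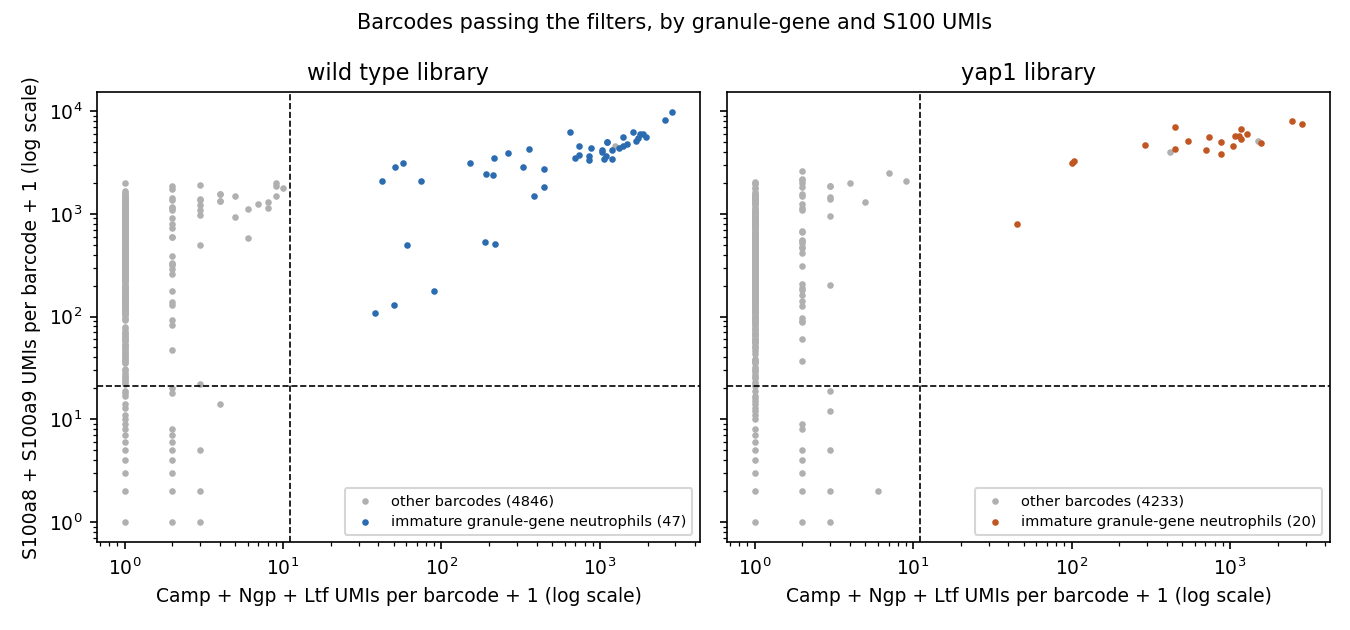
UMIs of Camp, Ngp and Ltf (x axis, log scale, 1 added) against UMIs of S100a8 and S100a9 (y axis, log scale, 1 added) in every barcode passing the filters, with dashed lines at the selection limits of 10 and 20 UMIs. The coloured cells (47 wild-type, 20 yap1) begin at 37 and 44 granule-gene UMIs, and grey points to the right of the line are the barcodes left out for Cd79a or Cd3e.

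Immature granule-gene neutrophils made up 0.961% of passing wild-type barcodes (95% Clopper-Pearson interval 0.707 to 1.28) and 0.470% of passing yap1 barcodes (0.287 to 0.725). The yap1 share was the lower one, at 0.490 times the wild-type share (0.275 to 0.842). The comparison set of other neutrophils, which held at least 20 S100a8 and S100a9 UMIs, at least 3 Retnlg UMIs, fewer than 10 granule-gene UMIs and no Cd79a or Cd3e, numbered 277 and 260 cells. Its share differed by less than the counting error, with a ratio of 1.08 (0.908 to 1.28). Of all neutrophils counted in these 2 sets, 14.5% of wild-type and 7.14% of yap1 cells were immature (10.9 to 18.8 and 4.42 to 10.8). Each library is a pool of 3 mice, so the spread between mice behind these shares is unknown. Without the 5 wild-type cells whose S100a8 and S100a9 share lay under 20% of UMIs the ratio was 0.548 (0.305 to 0.954), and without cells holding 3 or more UMIs of other-lineage markers apart from Ly6c2 it was 0.628 (0.333 to 1.15), so that its interval then reached 1.

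The immature cells were large in RNA terms. They held a median of 10471 UMIs and 1665 genes in the wild-type library and 13536 UMIs and 1885.5 genes in the yap1 library. Other neutrophils held 3135 UMIs and 887 genes, and 3334 UMIs and 982.5 genes. B cells of the same libraries, given as a reference for depth, had medians of 3746 and 4506 UMIs. A B cell held at least 5 Cd79a and Cd79b UMIs together, fewer than 10 granule-gene UMIs and no Cd3e. S100a8 and S100a9, the calprotectin subunits, took 35.6% of wild-type and 38.4% of yap1 UMIs in immature cells, against 19.0% and 17.7% in other neutrophils. Camp, Ngp and Ltf took a further 8.13% and 7.21%, against 0.0120% and 0.00569%.

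Markers of other lineages were sparse in these cells. The rule had left out barcodes with Cd79a or Cd3e, so low B and T cell values are in part fixed by it. B cell markers gave 1 wild-type and 0 yap1 UMIs, T and NK cell markers 5 and 8, basophil markers 0 and 0, endothelial markers 16 and 4, and platelet markers 4 and 0. The 7 macrophage and Kupffer markers gave 32 wild-type UMIs, with every one of the 7 detected, and 3 yap1 UMIs, all of C1qa. The 6 monocyte markers gave 475 and 264 UMIs, of which Ly6c2 alone made up 429 and 261. Ly6c2, a Ly6 family surface protein of monocytes and granulocytes, stood at 877 and 993 CPM in immature cells and 260 and 138 CPM in other neutrophils, while the monocyte receptor Ccr2 had 7 and 1 UMIs. All 12 neutrophil markers were detected in both libraries, S100a8 and S100a9 being required by the rule. Other neutrophils held macrophage markers at 791 and 680 CPM, against 65.4 and 11.4 CPM in immature cells. MHC class II genes stood at 1472 and 3856 CPM there against 131 and 79.9 CPM. Erythroid markers stood at 875 and 50.4 CPM against 24.5 and 26.6 CPM. The sum of monocyte markers was higher in immature cells through Ly6c2, the 1 of 4 measured monocyte markers that was at least 2-fold higher. The other 3 were at least 2-fold lower in both libraries. Endothelial and T and NK cell markers differed in order between the libraries. The part of other cell types in the genes lower in immature cells was not tested.

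Because the cells were chosen by granule genes in these same counts, their difference from other neutrophils is a description without a test. Of 2028 genes with at least 50 UMIs over both cell sets in each library, 98 (4.83%) were at least 2-fold higher in immature cells in both libraries and 619 (30.5%) at least 2-fold lower. CPM are relative, and 46.2% of wild-type and 48.2% of yap1 UMIs in immature cells came from only 6 genes (S100a8, S100a9, Camp, Ngp, Ltf and Lcn2), against 19.5% and 18.0% in other neutrophils. The median gene lay at a log2 ratio of -0.65 and -0.74. Scaling by the median of ratios, which brings the wild-type median to -0.07, gave 211 genes higher and 311 lower, and a total without the abundant genes gave 207 and 315. Genes higher in immature cells were 13.7% of the genes past 2-fold by CPM and 40.4% and 39.7% by those scalings, so the list medians below are to be read against the median of all genes. With ratios divided by that of the median gene of each library, 224 genes were 2-fold higher and 298 lower.

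Specific granule genes were mostly higher. Of 23 measured members, 15 were at least 2-fold higher in both libraries and 0 lower, with median log2 ratios of 2.25 and 2.24, and 3 of the 15 (Camp, Ngp and Ltf) had chosen the cells. Without those 3 genes, 12 of 20 were higher and 0 lower, with medians of 1.82 and 1.98. Camp, the precursor of an antimicrobial peptide, reached 34956 CPM in wild-type and 27531 CPM in yap1 immature cells against 4.26 and 6.44 CPM in other neutrophils. Ngp, a cystatin-like granule protein, reached 36646 and 34170 CPM against 112 and 46.1 CPM. Ltf, which binds iron, reached 9650 and 10368 CPM against 4.26 and 4.29 CPM.
Low shares of other neutrophils held a UMI of these genes. A Camp UMI occurred in 1.44% of wild-type and 2.31% of yap1 other neutrophils and in 1.48% and 0.829% of B cells, a cell type that should lack it. The wild-type share was thus no higher than in B cells. For Ngp the shares were 12.3% and 8.46% of other neutrophils against 2.89% and 1.35% of B cells, with median depths of 3135 and 3334 UMIs against 3746 and 4506 UMIs.

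Specific granule genes that the selection had not used followed with smaller ratios. Lcn2, which captures bacterial siderophores, stood at 24836 and 25826 CPM in immature cells and at 5167 and 3813 CPM in other neutrophils, 4.81 (4.65 to 4.97) and 6.77 (6.50 to 7.06) times as high. Chil3, a chitinase-like protein, stood at 5899 and 3242 CPM against 65.0 and 163 CPM. Cd177, a neutrophil surface glycoprotein, stood at 969 and 1081 CPM against 63.9 and 68.7 CPM, about 15-fold higher in both libraries (15.2 and 15.7). Cybb, the membrane subunit of the NADPH oxidase, stood at 1601 and 1362 CPM against 134 and 244 CPM, and was the 1 of 7 measured oxidase genes past 2-fold. Fcnb (ficolin B), listed among the granule genes of younger cells, had 44 and 42 UMIs in immature cells (89.9 and 160 CPM), but 33 of the 42 yap1 UMIs came from 1 cell. Mmp8, also in the list, was 2.43 and 5.53 times as high as in other neutrophils, while Pglyrp1 (1.85 and 1.67) and Hp (1.19 and 1.05) stayed below 2-fold.

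Primary granule genes were nearly silent in the immature cells. The 12 genes of their list found in the files summed to 74 UMIs in 47 wild-type cells and 49 UMIs in 20 yap1 cells, against 1363 and 306 UMIs in other neutrophils. Mpo (myeloperoxidase) had 0 and 2 UMIs and Ctsg (cathepsin G) had 0 and 0. Elane (neutrophil elastase) had 1 and 16 UMIs, and all 16 came from 1 yap1 cell that also held 6 Prtn3 and 2 Mpo UMIs. The wild-type set of other neutrophils held Elane at 317 CPM, Prtn3 at 408 CPM and Mpo at 140 CPM, against 0, 15.02 and 2.15 CPM in the yap1 set. That wild-type set also held 55 UMIs of the mitosis gene Ube2c, against 1 in the yap1 set. The cells behind these UMIs are not given here, so the values are not a level of mature neutrophils in general.

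Among 11 measured transcription factors 1 was higher and 9 lower, or 1 and 4 when measured from the median gene. Cebpe, required for specific granule formation, was the 1 higher, with 264 and 263 CPM in immature cells and 11.7 and 17.2 CPM in other neutrophils, or 22.5 (12.2 to 46.2) and 15.3 (8.78 to 28.2) times as high. Cebpb, linked to emergency and inflammatory granulopoiesis, ran the other way, at 1968 and 2077 CPM against 7571 and 8050 CPM. Spi1 (PU.1) stood at 499 and 419 CPM against 1053 and 1015 CPM. Serpinb1a, an inhibitor of neutrophil serine proteases, Adpgk, an ADP-dependent glucokinase, and Itgb2l, a beta-2-like integrin, were further genes high in both libraries. Serpinb1a was 20.4 and 45.3 times as high as in other neutrophils, Adpgk 17.6 and 31.9 times, and Itgb2l 82.5 and 87.8 times. Syne1 and Zmpste24, genes of the nuclear envelope and lamina, were 14.8 and 36.3 times and 14.5 and 31.9 times as high. Lta4h, which makes leukotriene B4, was 7.84 and 23.6 times as high, and Ltb4r1, its receptor, 4.98 and 4.74 times.

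Genes of mature and activated neutrophils were low. Of 29 measured mature neutrophil genes, 25 were at least 2-fold lower in both libraries and 1 was higher (Wfdc21), with median log2 ratios of -2.20 and -1.96. Measured from the median gene, 16 were lower. Csf3r, the receptor for granulocyte colony-stimulating factor, stood at 143 and 137 CPM against 1553 and 1814 CPM in other neutrophils. Cxcr2, the receptor that draws neutrophils out of the marrow, stood at 188 and 259 CPM against 865 and 949 CPM, and Cxcr4, which holds them there, at 57.2 and 22.8 CPM against 449 and 393 CPM. Both chemokine receptors were thus low in the immature cells.
Retnlg, a resistin-like secreted protein, differed by less than 2-fold, with 11316 and 17292 CPM against 13614 and 12869 CPM. Other neutrophils were required to hold 3 Retnlg UMIs and the immature cells were not.

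Inflammatory transcripts were also lower. Of 22 measured cytokine and NF-kB feedback genes 19 were at least 2-fold lower and 0 higher, with median log2 ratios of -2.56 and -2.63, and 15 were lower when measured from the median gene. Il1b stood at 350 and 179 CPM against 9425 and 9547 CPM, Cxcl2 at 1069 and 1332 CPM against 12907 and 12998 CPM, and Nlrp3 at 20.4 and 7.61 CPM against 619 and 597 CPM. Wfdc17 and Ifitm1 were among the 12 lowest genes, Wfdc17 at 159 and 19.0 CPM against 7823 and 7069 CPM and Ifitm1 at 137 and 202 CPM against 7297 and 7392 CPM. Immediate early and stress genes were lower for 15 of 18 members, interferon-stimulated genes for 8 of 13 and iron genes for 6 of 9, the 2 higher iron genes being Lcn2 and Ltf, where 30.5% of all genes were lower. Measured from the median gene these counts were 9, 7 and 4. Gelatinase granule genes were split, with 2 of 12 higher (Dstn and Ckap4), 2 lower (Cd14 and Slc11a1) and medians of -0.34 and -0.31. The gelatinase Mmp9 itself stood at 1478 and 1819 CPM against 1125 and 1565 CPM. Glycolysis genes had 1 of 15 higher (Hk3), 3 lower, and medians of 0.05 and 0.17. The plot of levels in both cell sets shows these groups side by side.

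**Figure D2:**
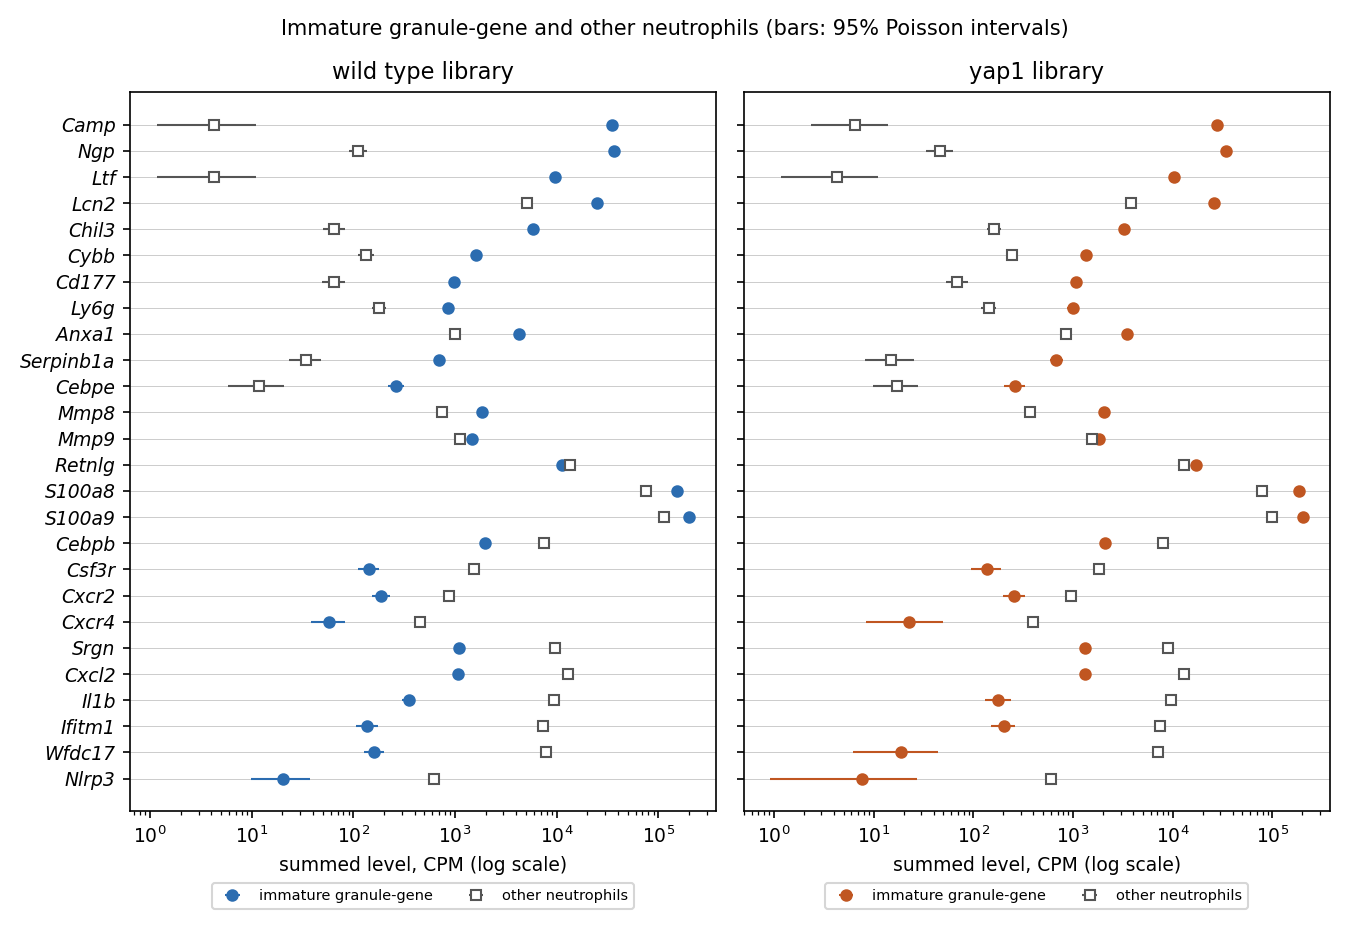
Summed level in CPM (x axis, log scale) of 26 genes in immature granule-gene neutrophils (filled circles) and other neutrophils (open squares), with the wild-type library on the left, the yap1 library on the right and bars giving 95% Poisson intervals. Granule genes and Cebpe lie to the right of the open squares and Cebpb, Csf3r, Cxcr2, Il1b and Wfdc17 to the left, in both libraries.

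The immature cells were not uniform. The share of UMIs taken by Camp, Ngp and Ltf ran from 0.642% to 12.996% in wild-type cells (median 8.11%) and from 1.08% to 11.9% in yap1 cells (median 6.92%). The share of Retnlg ran the other way, with Spearman's rho of -0.65 over 47 wild-type cells and -0.69 over 20 yap1 cells. The cells of a library share 1 preparation and the 2 shares have the cell's total in common, so this is a description. Retnlg exceeded the granule genes in 9 wild-type and 5 yap1 cells.

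**Figure D3:**
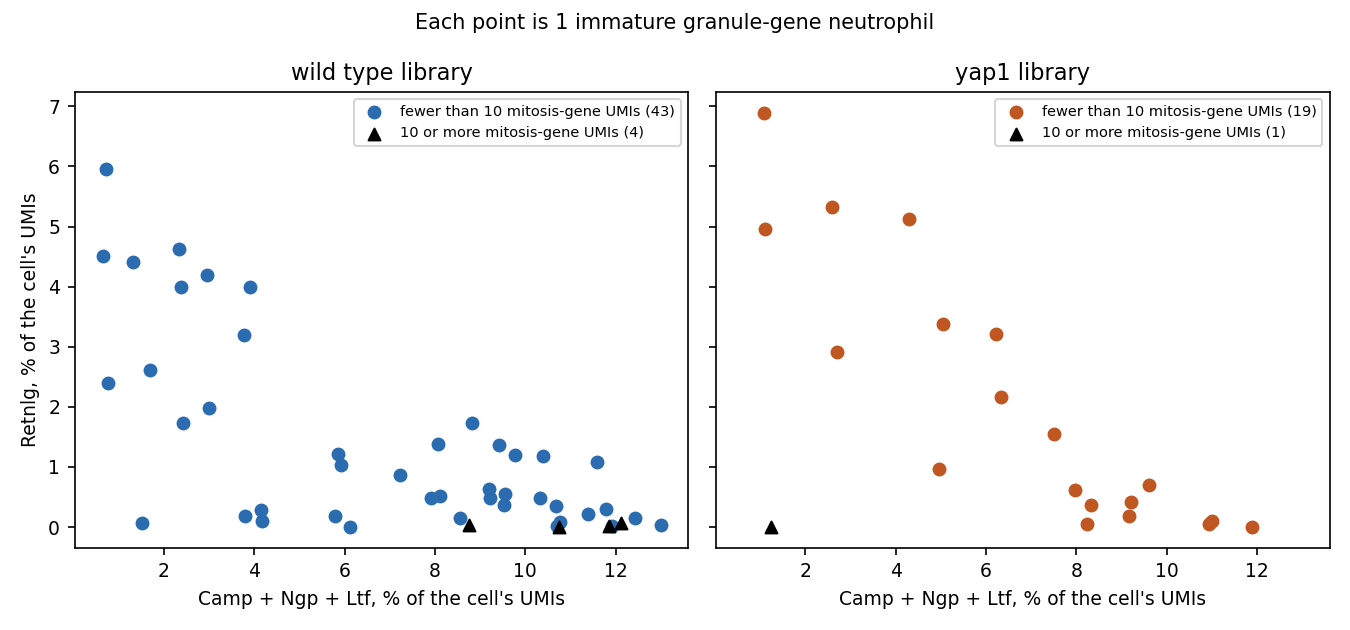
Share of UMIs from Camp, Ngp and Ltf (x axis, %) against that from Retnlg (y axis, %) in each immature granule-gene neutrophil, with triangles for cells holding 10 or more mitosis-gene UMIs (4 wild-type, 1 yap1). In both libraries high Retnlg shares occur at low granule-gene shares, with rho of -0.65 and -0.69.

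To follow other genes along this range, the cells of each library were ranked by granule-gene share and split into terciles of 16, 16 and 15 wild-type and 7, 7 and 6 yap1 cells. Median granule-gene shares were 11.1%, 8.09% and 2.37% in the wild-type and 9.60%, 6.34% and 1.91% in the yap1 terciles. Median depth moved with them, at 13365, 10067.5 and 7320 UMIs, and 14106, 14031 and 9800.5 UMIs, and the part of depth in the differences was not tested beyond thinning each cell to 1000 UMIs. Camp, Ngp and Ltf ranked the cells, so their own decline is built in.

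Chil3 followed the granule genes. It stood at 8971, 5865 and 603 CPM over the wild-type and 6294, 1614 and 233 CPM over the yap1 terciles, so the lowest tercile had 0.0672 (0.0525 to 0.0849) and 0.0370 (0.0201 to 0.0625) times the level of the highest. Cebpe stood at 342, 304 and 74.3 CPM and 357, 246 and 116 CPM. The lowest yap1 tercile included the cell with 16 Elane UMIs, so it is not of 1 kind of cell. That cell held 4 Cebpe and 0 Retnlg UMIs, and no other cell of the tercile held more than 2 Cebpe UMIs. The lowest wild-type tercile was mixed as well. It included cells with S100a8 and S100a9 shares of 9.81%, 10.8% and 4.02%, against a median of 36.4% over all wild-type immature cells. Orm1, an acute-phase lipocalin, went from 494 to 41.3 CPM and from 531 to 16.6 CPM, and Serpinb1a from 960 to 223 CPM and from 1026 to 333 CPM. Cybb, Anxa1 and Lcn2 also had their lowest level in the tercile poorest in granule transcripts, Lcn2 with 0.567 and 0.476 times the level of the richest.

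Genes of later stages had the opposite order. Retnlg stood at 3350, 6600 and 31308 CPM in the wild-type and 2134, 17224 and 44910 CPM in the yap1 terciles. That is 9.35 (8.62 to 10.1) and 21.04 (18.4 to 24.2) times as much in the lowest as in the highest tercile. Mmp8, a collagenase of neutrophil granules, went from 551 to 3990 CPM and from 614 to 3791 CPM, 7.24 and 6.18 times. Although the list counts Mmp8 as a specific granule gene, its order matched that of Mmp9, which went from 689 to 2734 CPM and from 1136 to 2245 CPM. Cxcr2 went from 85.5 to 496 CPM and from 91.6 to 515 CPM, and Csf3r from 85.5 to 297 CPM and from 73.3 to 249 CPM. S100a6 was 5.74 and 5.68 times, Srgn 4.06 and 7.60 times and Cebpb 3.44 and 3.01 times as high in the lowest tercile. Cebpe and Cebpb thus had opposite orders in both libraries.

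Some genes were level along the range. Cd177 stood at 941, 957 and 1033 CPM and 1072, 1133 and 1014 CPM. Pglyrp1, a peptidoglycan recognition protein, stood at 2970, 2498 and 3015 CPM and 2803, 2812 and 2893 CPM, and the surface marker Ly6g at 827, 913 and 851 CPM and 834, 1187 and 964 CPM. For these 3 genes the interval of the ratio between the outer terciles included 1 in both libraries. Even the lowest tercile differed from other neutrophils, with Csf3r at 297 and 249 CPM against 1553 and 1814 CPM and Il1b at 1239 and 382 CPM against 9425 and 9547 CPM.

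**Figure D4:**
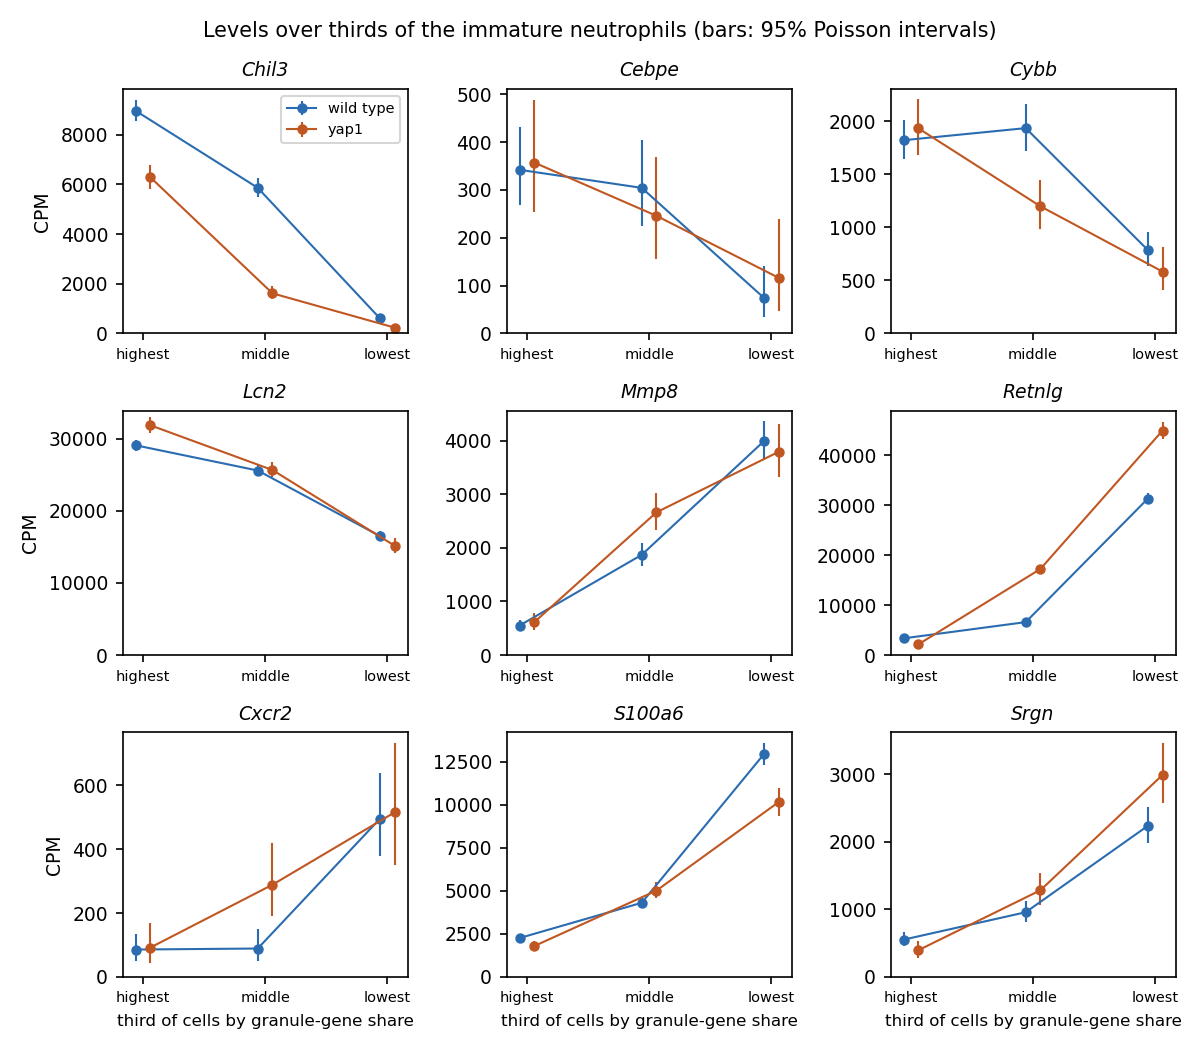
Level in CPM (y axis, linear from 0) of 9 genes in the highest, middle and lowest tercile of immature granule-gene neutrophils by granule-gene share (x axis), in wild type (blue) and yap1 (orange), with 95% Poisson intervals. Chil3, Cebpe, Cybb and Lcn2 are lowest in the lowest tercile, and Mmp8, Retnlg, Cxcr2, S100a6 and Srgn are highest there, in both libraries.

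A few cells carried transcripts of mitosis. Over 13 mitosis genes, 4 of 47 wild-type cells held 142, 104, 28 and 18 UMIs, together 97.7% of the 299 found, and 39 cells held 0. Of the 20 yap1 cells, 1 held 16 of 22 UMIs and 17 held 0. The 4 wild-type cells were rich in granule transcripts (1405 to 2834 granule-gene UMIs) and held between 1 and 11 Retnlg UMIs and at most 1 Mmp8 UMI. The 1 yap1 cell was of another kind, with 39 Camp, 5 Ngp and 0 Ltf UMIs, 0 Lcn2 and 0 Retnlg UMIs, and the 16 Elane and 6 Prtn3 UMIs given above. The histone variant H2afz, in the proliferation list but not restricted to mitosis, was 2.43 and 2.19 times as high in immature as in other neutrophils.

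Few genes differed by 2-fold between the genotypes, and their number depended on the cells and the UMI minimum. Of 1126 genes with at least 50 UMIs over both libraries, 4 (0.355%) were at least 2-fold higher and 32 (2.84%) at least 2-fold lower in yap1, and the median gene lay at a log2 ratio of -0.08. Of the 32, 6 had more than 50% of their wild-type UMIs in 3 cells. Some of the 32 were lower in other cells of the yap1 library too, so they are not particular to the immature cells. Wdr89 and Gm11808, named after their values were seen, stood at 999 and 878 CPM in wild-type B cells. In yap1 B cells they stood at 110 and 221 CPM, and their ratios in other neutrophils were 0.173 and 0.232. Others were not, such as Tagln2, with a ratio of 0.931 in other neutrophils. Without cells holding 3 or more other-lineage UMIs apart from Ly6c2 there were 9 higher and 12 lower of 901 genes measured. Thinned to 1000 UMIs there were 0 and 1 of only 102 genes, and with a minimum of 200 UMIs 0 and 0 of 306. Of 24 measured specific granule genes 0 were past 2-fold in either direction, with a median of -0.02. Of the genes that chose the cells, given as a description, Camp had a yap1 over wild type ratio of 0.788 (0.766 to 0.810), Ngp 0.932 (0.909 to 0.956), and Ltf 1.07 (1.02 to 1.13). Of the others, Lcn2 had 1.04 (1.01 to 1.07), Cd177 1.12 (0.959 to 1.29) and Cebpe 0.996 (0.732 to 1.34). Chil3 and Lyz2, also in the list, were lower in yap1, at 0.549 (0.508 to 0.593) and 0.563 (0.535 to 0.593). Immature cells took 34.3% of all neutrophil UMIs in the wild-type and 22.0% in the yap1 library. Summed over immature and other neutrophils together, Camp stood at 11982 CPM in wild type and 6061 CPM in yap1, a ratio of 0.506, with ratios of 0.598 for Ngp, 0.690 for Ltf and 0.727 for Lcn2.

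Other lists varied in their distance from the median gene. Of 25 mature neutrophil genes 1 was 2-fold lower (Wfdc17) and 0 higher, with a median of 0.21. Gelatinase granule genes (10 measured), NADPH oxidase genes (7), inflammatory genes (12), immediate early genes (12), interferon-stimulated genes (5) and glycolysis genes (11) had 0 members past 2-fold, with medians of 0.09, -0.05, 0.07, -0.14, -0.11 and 0.05. Of 8 protease inhibitors 2 were lower (Wfdc17 and Gm5483), with a median of 0.16, where 2.84% of all genes were lower. Both rest on few cells. Wfdc17 had 78 wild-type UMIs, 53.8% of them in 3 cells, and 5 yap1 UMIs. Its level of 159 and 19.0 CPM lay below that of B cells, at 328 and 266 CPM. The Gm5483 UMIs came from 6 wild-type and 2 yap1 cells, with 48.6% and 68.4% of them in 1 cell. Only 2 genes of the YAP and TEAD list had enough UMIs, so their median of -0.81 does not describe that list. The 1 past 2-fold was the kinase Stk4, with 49 wild-type and 13 yap1 UMIs and a ratio of 0.494 (0.246 to 0.924). Of 5 proliferation genes, with a median of -0.44, 1 was 2-fold lower, Ube2c, whose 97 wild-type UMIs came from 5 cells. Weighting cells equally its ratio moved from 0.0959 to 0.81.

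Genes with the widest distance from 1 included several neutrophil products. Lyz2 (lysozyme M) stood at 13180 CPM in wild-type and 7427 CPM in yap1 immature cells, a ratio of 0.563 (0.535 to 0.593), against 2487 and 2867 CPM in other neutrophils (1.15, 1.09 to 1.22). The Cre of the yap1 mice is driven from the Lyz2 locus, and the part of that allele in this value was not tested. Lyz1, a near-identical gene whose reads could be assigned to either copy, had 0 UMIs in the immature cells of both libraries. Chil3 was also lower in yap1, at 0.549 (0.508 to 0.593), and 1 cell held 38.1% of its yap1 UMIs. Without the cell holding most of them in each library the ratio was 0.41. Cd47, which signals against phagocytosis, stood at 566 and 293 CPM (0.517, 0.397 to 0.668), and Il1b at 350 and 179 CPM (0.512, 0.362 to 0.710). B cells held Il1b at 339 and 166 CPM, a like level and order. In immature cells its UMIs came from 17 of 47 wild-type and 8 of 20 yap1 cells, and 3 cells held 42.1% and 70.2% of them. The part of RNA from other cells in the Il1b ratio was not tested, and that ratio is not read as a difference. Rbm3, a cold-inducible RNA-binding protein, had a ratio of 0.372 and Tagln2, an actin-binding protein, of 0.354.

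Macrophage markers summed to 65.4 CPM in wild-type and 11.4 CPM in yap1 immature cells, and their part in the lower values was not tested. Without cells holding 3 or more other-lineage UMIs apart from Ly6c2 (33 wild-type and 18 yap1 cells left), the cathepsin Ctsb moved from 0.471 to 1.01 and Il1b from 0.512 to 0.78. In the same cells Lyz2 stayed at 0.53, Chil3 at 0.55 and Cd47 at 0.57.

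Retnlg was higher in yap1 immature cells, at 17292 against 11316 CPM, a ratio of 1.53 (1.47 to 1.59), and at 0.945 in other neutrophils. The median granule-gene share was 8.11% in wild-type and 6.92% in yap1 cells, and its part in the ratio was not tested. Mrgpra2b, a Mas-related receptor of neutrophils, stood at 168 and 380 CPM (2.27, 1.68 to 3.08), and near-identical copies in its family make its counts uncertain. Ifitm6 had a ratio of 1.47, S100a11 1.39 and Wfdc21 1.32. The plot of yap1 over wild type ratios places these genes beside the granule genes.

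**Figure D5:**
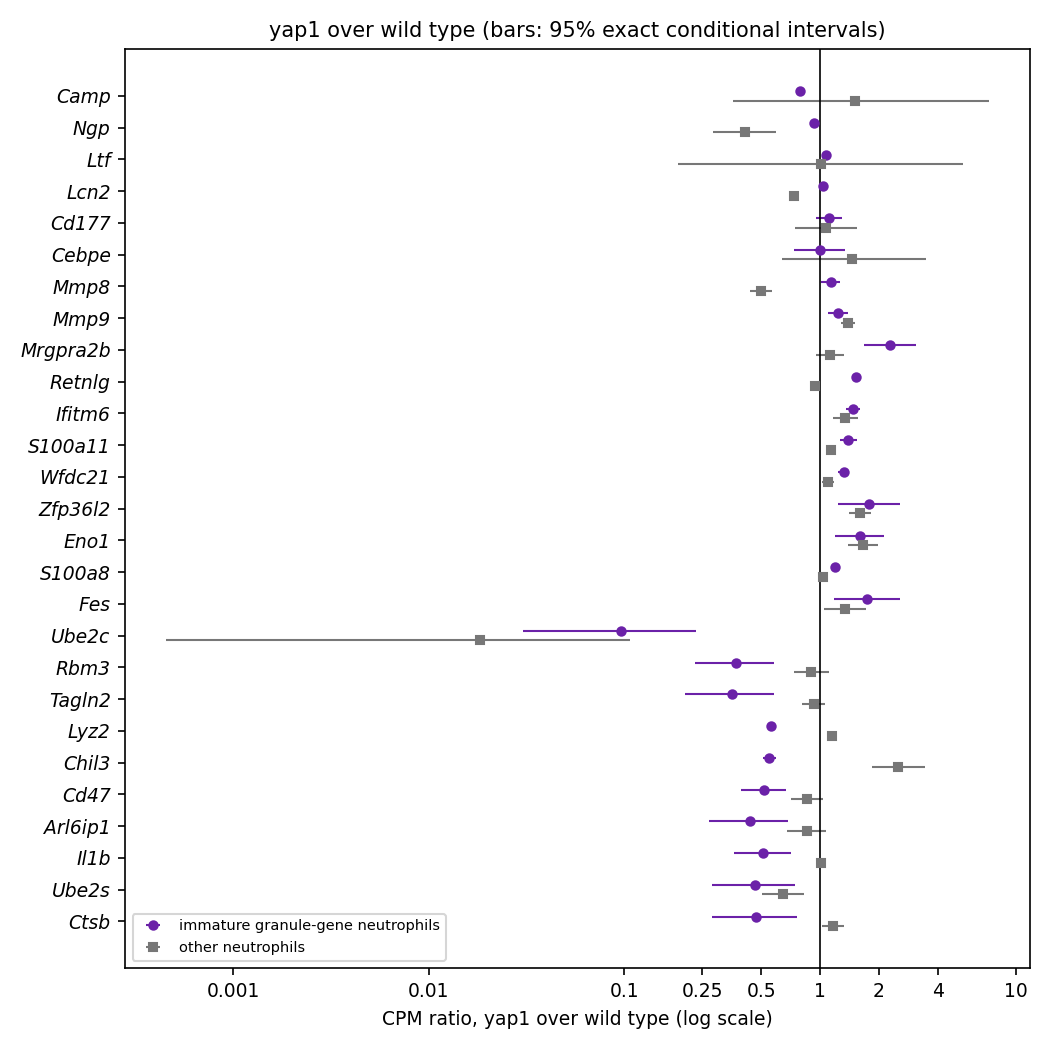
Ratio of CPM, yap1 over wild type (x axis, log scale), for 8 granule and granule-factor genes and 19 of the 20 genes ranked by distance from 1, in immature granule-gene neutrophils (circles) and other neutrophils (squares), with 95% exact conditional intervals. The 8 genes at the top lie between 0.788 and 1.23 in the immature cells, and the specific granule genes Lyz2 and Chil3 lie at 0.563 and 0.549 there and above 1 in other neutrophils. In other neutrophils the Chil3 UMIs came from 12 wild-type and 9 yap1 cells.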

How the data were processed

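Single-cell RNA libraries of liver nonparenchymal cells, 1 per genotype, were used as the UMI counts per gene and barcode deposited by the authors. The submitters' processing notes name Bowtie 0.12.2, Seurat and mm10 without their roles, and the counting program, strand and barcode selection are not given in the sources used here. For each cell set, UMIs were totalled by gene and divided by the set's total to give CPM, with Poisson intervals computed exactly. Ratios have exact conditional binomial intervals and shares have Clopper-Pearson intervals, all at 95%. Each gene compared needed 50 UMIs. A gene was counted past 2-fold between immature and other neutrophils only if it was so in both libraries. A floor of 3 counts was used only for bounds on genes with 0 UMIs, and ratios used the raw counts. No test between genotypes was possible.

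Named genes were those of the granule, maturation and marker lists, the 12 highest and 12 lowest genes between immature and other neutrophils, and the 10 highest and 10 lowest between genotypes with at least 100 UMIs, ranked by the interval bound nearest 1 (leaving out predicted genes, Xist and Y-linked genes, hepatocyte markers, and mitochondrial, ribosomal protein, immunoglobulin and hemoglobin genes). List counts without the 3 granule genes, and with ratios measured from the median gene, were added after the data were seen. Members, the 34 gene lists and the comparisons were chosen with earlier results of these data known. The automatic threshold of Scrublet marked 0.0817% and 0.141% of barcodes and was not used, so doublets were kept, and the top 4% of scores were left out as an alternative. The ratios, intervals and 2-fold calls were tested on simulated Poisson counts, which have no spread between cells or mice beyond counting error. Values of some named-rule genes are not reported here. Analyses ran under Python 3.11.15 with scanpy 1.11.5, scipy 1.17.1, pandas 2.3.3, numpy 2.4.6 and matplotlib 3.10.9.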

Additional observations from a re-analysis of the deposited data

Results flagged for a closer look

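In 4 genes the yap1 over wild type ratio pointed in opposite directions in immature and other neutrophils, each by at least 1.5-fold with an interval clear of 1. These differences were not tested, and genes outside the lists were named after their values were seen. Chil3 had a ratio of 0.549 in immature and 2.51 in other neutrophils. The splicing factor Mbnl1 had 0.580 (0.327 to 0.984) and 2.10 (1.39 to 3.21), and the Mediator subunit Med31 had 0.399 (0.171 to 0.831) and 1.62 (1.11 to 2.39). Kmt2e had 1.74 (1.01 to 2.99) and 0.655 (0.524 to 0.817). The Chil3 UMIs of other neutrophils came from 12 of 277 wild-type and 9 of 260 yap1 cells. B cells held Chil3 at 34.9 CPM in wild type and 70.0 CPM in yap1, the same order as in other neutrophils. The part of RNA from other cells in the Chil3 ratio of other neutrophils was not tested. In the comparison of immature with other neutrophils, Med31 had a ratio of 1.75 (1.12 to 2.72) in wild type and 0.431 (0.190 to 0.864) in yap1. Stfa2 had 0.375 (0.213 to 0.627) in wild type and 2.28 (1.35 to 3.78) in yap1, with counts that near-identical stefin copies make uncertain.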

How the results depend on the processing

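No paired analysis was possible because each genotype is 1 library. Under the stricter filter, a cut of 5 UMIs and the Scrublet alternative the ratio of shares was 0.499, 0.452 and 0.523. Leaving out cells with 3 or more other-lineage UMIs left 4 wild-type and 0 yap1 cells (shares of 0.0817% and 0%, ratio 0), since Ly6c2 made up most of those UMIs, and no gene comparison could be given. Not counting Ly6c2, an alternative added after seeing the data, the wild-type share was 0.674% and Ctsb reached 1.01. Of 901 genes measured, 9 were then higher and 12 lower in yap1. A cut of 5 UMIs gave 11 of 1256 genes higher in yap1. Between immature and other neutrophils, genes higher and lower numbered 211 and 311 by the median of ratios and 207 and 315 by the restricted total. With cells weighted equally 9 genes were higher in yap1, the proliferation and NET list medians were 0.21 and 0.34, and Ube2s reached 1.01. Thinning to 1000 UMIs left 0 genes higher and 1 lower of 102 in yap1, and 21 higher and 201 lower of 536 in immature cells. It gave list medians of -0.38 (gelatinase), -0.49 (NADPH oxidase) and -0.32 (iron), and ratios of 2.30 for Ube2c and 1.15 for Ube2s. A minimum of 200 UMIs gave 0 and 0 of 306 genes between genotypes and 30 and 251 of 645 between cell sets. No minimum gave 1219 and 3040 of 9236, and 497 and 2808 of 9889, with an inflammatory list median of -0.66. The ratios of the lowest over the highest tercile, added after seeing the data, moved as follows. Without the top Scrublet scores Retnlg was 10.2 in wild type. Thinned, Retnlg was 43.0 in yap1, Mmp8 5.43 in wild type, S100a6 3.62 and 3.33, and Chil3 0.0904 and 0. With equal weights Retnlg was 8.17 and 16.1, Mmp8 5.58 in wild type, and S100a6 4.92 and 4.27. With S100a8 and S100a9 at 20% or more of UMIs, also added, wild-type Retnlg was 11.7, Mmp8 12.1 and Chil3 0.0935.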
